A study of Mus musculus with 6 samples.

Results

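The E2F transcription factors and the RB proteins that bind them control entry into S phase of the cell cycle. The 10 genes described here, E2f1 to E2f8, Rb1 and Rbl1, were taken by name from a table of 55367 gene names, and all 10 were among the 16976 genes with enough counts to be tested. Their mRNA was measured by poly(A) RNA-seq in cortical neurons of C57BL/6J mice, taken from pups at postnatal day 1 and cultured for 2 days. The comparison was of 3 Fmr1-KO libraries relative to 3 WT libraries, and the study asked how neurons without FMRP, the RNA-binding protein missing in fragile X syndrome, differ in their mRNAs. Cells of both genotypes were released with papain and kept in Neurobasal medium with B27 Plus, and by the study's methods they had been depleted of ACSA2+ astrocytes and of myelin before plating. The labels name no cell type-specific driver for the Fmr1 knockout, so other cell types in a culture had the same genotype as its neurons, which were enriched by depletion alone. The 3 libraries of a genotype came from independently derived samples.

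E2f1, E2f2 and E2f3 encode activators of S-phase genes, and E2f4 and E2f5 encode factors that repress them when bound to a pocket protein. E2f6 encodes a repressor that works through a Polycomb complex without any pocket protein. E2f7 and E2f8 encode the atypical E2Fs, which repress E2F targets without a DP partner or a pocket protein. Rb1 encodes RB and Rbl1 encodes p107, pocket proteins that hold E2Fs in check until cyclin-dependent kinases phosphorylate them. In the developing cortex RB and p107 are known for restraining the division of progenitors, and E2F genes of the atypical class are themselves E2F targets.

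The promoters of the members are shown first, because several of these genes are known to be regulated by the E2F family itself. RefSeq promoter windows of GRCm38.p6, which run from 250 bases before to 50 bases after a start site, were found for 7 of the 10 members. Each window was searched on both strands for the E2F words TTTCCCGC, TTTCGCGC, TTTGCCGC and TTTGGCGC and for TTTGAA, the core of the CHR element that late cell-cycle genes share. The E2F words and TTTGAA do not overlap in letters within any line printed here. Every line is in the direction of the gene, and the matched letters, or their reverse complement, are in capitals.
E2f7, chr10:110745211-110745278, plus strand: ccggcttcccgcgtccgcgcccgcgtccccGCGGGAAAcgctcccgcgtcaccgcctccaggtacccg
Rbl1, chr2:157204535-157204582, minus strand: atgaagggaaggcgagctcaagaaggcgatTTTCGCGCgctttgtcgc
E2f8, chr7:48881597-48881646, minus strand: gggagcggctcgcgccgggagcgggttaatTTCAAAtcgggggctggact
E2f3, chr13:29986064-29986116, minus strand: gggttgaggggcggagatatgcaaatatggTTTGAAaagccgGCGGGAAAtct
E2f2, chr4:136172294-136172323, plus strand: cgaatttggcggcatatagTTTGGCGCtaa
The E2F word of E2f7 began 198 bases before the start site and that of Rbl1 began 18 bases before it. E2f8 had no E2F word in this window and had TTTGAA 20 bases before its start site. E2f3 had both, the E2F word at 11 and TTTGAA at 23 bases before the start site. E2f2 had an E2F word at base 40 of the RefSeq transcript, whose start is 120 bases before the start of the GENCODE gene. A second E2f2 window, around an internal start site, held TTTGAA 31 bases before that site. The windows of E2f1 and E2f6 and the second window of E2f3 had no match, and the E2f1 window lies around a start site 466 bases inside the GENCODE gene. An E2F word was present in 2.26% of 32851 windows of this length, TTTGAA in 17.9% and both in 0.274%. A match is a description of the letters and says nothing about binding in these cultures.

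Before the members, the libraries themselves were examined. Total counts ran from 30348556 to 35126207, and depth was similar in all 6 libraries. Values below are in CPM, the usual depth-scaled counts, after TMM scaling for library size and composition. The WT libraries had 113 ± 4.50 CPM of Fmr1 and the Fmr1-KO libraries had 57.4 ± 3.67 CPM (mean ± SD, n = 3 each), with no overlap. Fmr1 was thus lower in each library labelled Fmr1-KO. The Fmr1-KO mean was still 50.6% of the WT mean, so Fmr1 mRNA was reduced and not absent. Of the tested genes, 20.7% were called higher and 21.9% were called lower in Fmr1-KO at an adjusted P under 0.05 by edgeR, so a call is common in these data and is read below with the size of the difference. The median log2 fold-change of all tested genes was 0.01, the 5% and 95% quantiles were -0.66 and 0.54, and 774 genes, or 4.56%, were called higher with a log2 fold-change above 0.5. The neuron markers listed for the check of cell type were all detected, among them Tubb3, Map2 and Dcx.

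Of the 10 members, 7 were called higher in Fmr1-KO, against 20.7% of all tested genes, 0 were called lower, against 21.9%, and 3 were not called. By library, 8 members had all 3 Fmr1-KO values above all 3 WT values, against 25.4% of tested genes, 0 had all 3 below, against 26.3%, and 2 overlapped. The members divided by size as well as by call. E2f7, Rbl1, E2f8, E2f1 and E2f2 rose by 0.58 to 0.85 on the log2 scale, E2f6 and Rb1 rose by 0.20 to 0.23, and E2f3, E2f4 and E2f5 lay between -0.05 and 0.12 without passing the test. Among the 3 activator genes, E2f1 and E2f2 were thus higher while E2f3 was not called. In bulk libraries, a difference in the number of cells that express a gene and a difference in RNA per cell cannot be told apart, and this applies to every value below.

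**Figure D1:**
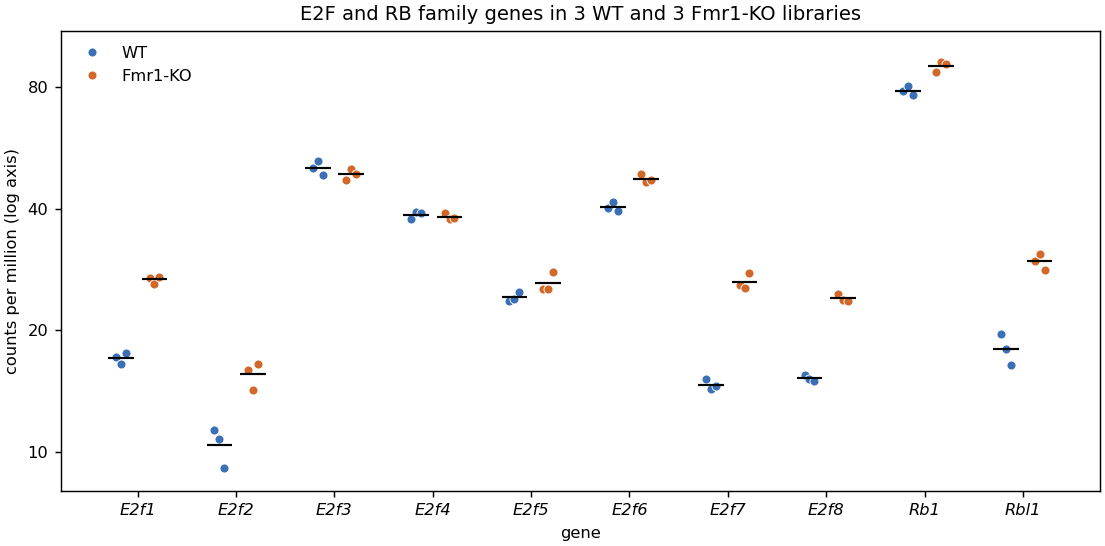
CPM of each E2F and RB family gene on a log axis, with a point for each of the 3 WT and 3 Fmr1-KO libraries and a bar at the mean of each genotype. The genotypes are clearly apart for E2f1, E2f2, E2f7, E2f8 and Rbl1 and overlap for E2f3 and E2f4.

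E2f1, the activator E2F best known for driving G1/S genes and, when in excess, apoptosis genes, had 17.1, 16.5 and 17.6 CPM in the WT libraries and 27.0, 26.0 and 27.1 CPM in the Fmr1-KO libraries. The lowest Fmr1-KO library was 8.45 CPM above the highest WT library, a gap far wider than the spread within either genotype. The means were 17.1 ± 0.539 and 26.7 ± 0.592 CPM (SD, n = 3), a log2 fold-change of 0.65 (SE 0.06, 95% confidence interval 0.53 to 0.76) for which the quasi-likelihood test of edgeR gave 5.36e-09 as the adjusted P (Benjamini-Hochberg over all tested genes). These values rested on 546 to 944 reads per library. E2f1 lies on the minus strand of chromosome 2, from 154559407 to 154569892 in GRCm38, and shares exon sequence with 0 other annotated genes on either strand.

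E2f2, the activator with the fewest reads in the family, had 11.3, 10.7 and 9.11 CPM in WT and 16.0, 14.2 and 16.5 CPM in Fmr1-KO. All 3 Fmr1-KO libraries were higher, but WT replicate 3 and Fmr1-KO replicate 2 each sat below the others of their genotype. The log2 fold-change was 0.58 (SE 0.08, 95% confidence interval 0.41 to 0.76), with an adjusted P of 6.71e-06 by edgeR. Its SE was the largest among the 10 members, on 304 to 574 reads per library. E2f2 is on the plus strand of chromosome 4, from 136172394 to 136196057.

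E2f3, the remaining activator, which is known for its part in the division and migration of cortical progenitors and neurons, had 50.4, 52.5 and 48.5 CPM in WT and 47.1, 50.2 and 48.7 CPM in Fmr1-KO. The libraries overlapped, with an Fmr1-KO library lowest and a WT library highest. The log2 fold-change was -0.05 (95% confidence interval -0.14 to 0.04; adjusted P 0.354 by edgeR). The interval excludes a rise of the size seen for E2f1 and E2f2. Counts summed by gene name do not separate the E2f3a and E2f3b isoforms. The gene runs from 29906575 to 29986063 on the minus strand of chromosome 13.

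E2f4 and E2f5 encode the E2Fs that carry p107, p130 and RB to promoters in resting and differentiating cells. E2f4 had 37.6, 39.3 and 39.0 CPM in WT and 39.0, 37.6 and 37.9 CPM in Fmr1-KO, and the genotypes covered nearly the same range. Its log2 fold-change was -0.02 (95% confidence interval -0.11 to 0.07; adjusted P 0.801 by edgeR), and the sign turned to 0.01 with library totals alone. E2f5 had 23.6, 23.9 and 24.9 CPM in WT and 25.2, 25.3 and 27.8 CPM in Fmr1-KO. The E2f5 libraries did not overlap, but the gap was 0.316 CPM, less than the SD of either genotype. Its log2 fold-change was 0.12 (95% confidence interval 0.00 to 0.23), with an unadjusted P of 0.0466 and an adjusted P of 0.0958 by edgeR. Without Fmr1-KO replicate 3, its highest library, it was 0.07. With library totals alone E2f5 passed the test, at 0.15 with an adjusted P of 0.0389 by edgeR. E2f4 is on chromosome 8, from 105297663 to 105305370, and E2f5 is on chromosome 3, from 14578641 to 14606309, both on the plus strand.

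E2f6, whose protein keeps germline genes silent with the PRC1.6 Polycomb complex, had 40.05, 41.6 and 39.5 CPM in WT and 48.6, 46.7 and 47.1 CPM in Fmr1-KO. Each Fmr1-KO library was above each WT library, by at least 5.09 CPM. The difference was small, with a log2 fold-change of 0.23 (SE 0.04, 95% confidence interval 0.15 to 0.32) and an adjusted P of 0.000114 by edgeR. E2f6 is the member with the largest share of annotated exon sequence beyond its coding transcripts. Of its 5663 exon bases in GENCODE M21, an earlier release than those the study names for its counting, 57.3% lie outside the annotated protein-coding transcript, in 3 transcripts annotated as NMD substrates and 3 with a retained intron. NMD, nonsense-mediated mRNA decay, is the pathway that the study followed. E2f6 lies on the plus strand of chromosome 12, from 16810963 to 16839742.

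E2f7 and E2f8 encode the atypical E2Fs, which act as a brake on E2f1 and on other E2F targets. E2f7 had 15.1, 14.3 and 14.5 CPM in WT and 25.9, 25.4 and 27.7 CPM in Fmr1-KO, with a gap of 10.3 CPM between the genotypes. The log2 fold-change was 0.85 (SE 0.06, 95% confidence interval 0.72 to 0.97), with an adjusted P of 2.31e-10 by edgeR. This was the largest rise in the family and placed E2f7 at position 209 among the 16976 genes ordered from the highest log2 fold-change. E2f8 had 15.5, 15.1 and 14.9 CPM in WT and 24.5, 23.8 and 23.6 CPM in Fmr1-KO, and its libraries were the most uniform of the members that rose by over 0.5. Its log2 fold-change was 0.66 (SE 0.06, 95% confidence interval 0.54 to 0.78; adjusted P 6.12e-09 by edgeR). E2f7 lies on the plus strand of chromosome 10, from 110745439 to 110787384, and E2f8 on the minus strand of chromosome 7, from 48866429 to 48881596.

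E2f7 was also a transcript that the study assayed by RT-qPCR. The paper names it among NMD targets whose mRNA can be higher in Fmr1-KO while their pre-mRNA rises more. It reads this as stronger NMD hidden by more synthesis, which was not tested here. The primers for E2f7 show which RNA an exon count can include. They are printed 5′ to 3′ as ordered, in lower case with no base singled out.
E2f7 sense, chr10:110754334-110754353: aggatgcgttcgtgaactcc
E2f7 antisense, chr10:110759920-110759940: tgacaaggggtagctcggata
E2f7 pre-mRNA sense, chr10:110754269-110754288: cgccagcccagacataagag
E2f7 pre-mRNA antisense, chr10:110754376-110754397: ggggaagttttacaaagccctc
The positions are those of exact matches to GENCODE M21 transcripts on GRCm38. The mRNA primers sit in exons 3 and 4 of the full-length coding transcript. The pre-mRNA primers sit in exon 3 and just past its end, at 110754359, in the intron that follows. Those intron bases are also annotated as exon in 2 short transcripts, which run 218 and 2278 bases past the exon 3 end. Under this annotation reads there would enter the E2f7 count, and 39.2% of the 9009 exon bases of E2f7 in M21 lie outside the longest coding transcript. How much of the E2f7 difference comes from those bases was not tested, because the table gives 1 count per gene.

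Of the pocket protein genes, Rb1 had the most CPM of any member, with 78.3, 80.3 and 76.7 CPM in WT and 87.2, 92.4 and 91.0 CPM in Fmr1-KO. The libraries did not overlap, and the log2 fold-change was 0.20 (SE 0.04, 95% confidence interval 0.13 to 0.28; adjusted P 0.000109 by edgeR). Rbl1 had 19.5, 18.0 and 16.4 CPM in WT and 29.7, 30.9 and 28.2 CPM in Fmr1-KO. It changed far more than Rb1, with a log2 fold-change of 0.72 (SE 0.06, 95% confidence interval 0.59 to 0.85; adjusted P 6.72e-09 by edgeR), and the 2 confidence intervals did not meet. Rbl2, which encodes p130, the pocket protein of resting cells, is no member but completes the set. It had 51.2 ± 1.26 CPM in WT and 50.8 ± 0.359 CPM in Fmr1-KO (SD, n = 3), and its log2 fold-change was -0.01, not called (adjusted P 0.825 in edgeR). Rb1 runs from 73183673 to 73325822 on chromosome 14 and Rbl1 from 157145893 to 157204534 on chromosome 2, both on the minus strand. Exons of E2f5, E2f7, E2f8 and Rb1 overlap those of a gene on the opposite strand, which stranded counting keeps apart, and 0 members overlap a gene on their own strand.

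**Figure D2:**
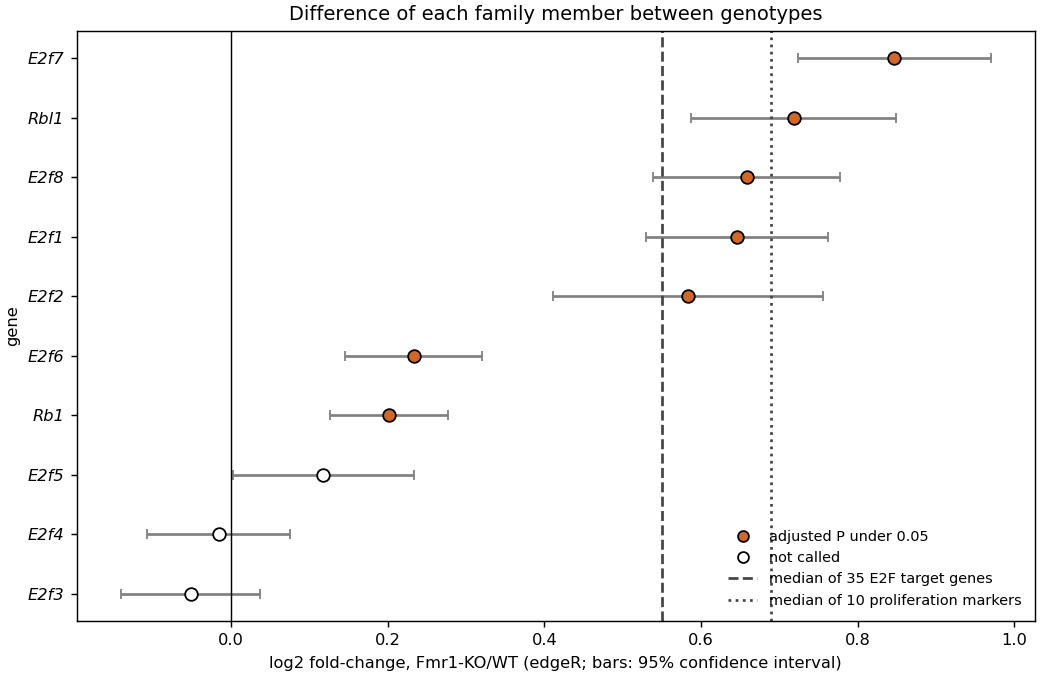
Log2 fold-change of each member, Fmr1-KO relative to WT, by edgeR, with 95% confidence intervals, filled points for an adjusted P under 0.05 and lines at the medians of 35 E2F targets (0.55) and 10 proliferation markers (0.69). Rbl1, E2f8, E2f1 and E2f2 lie near those medians, and E2f7 lies above both, with an interval of 0.72 to 0.97. E2f6 and Rb1 lie nearer to 0, and E2f3, E2f4 and E2f5 are not called.

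Levels were compared between genes only per length, as RPKM, here the CPM of a gene divided by the length of its merged exons in kb. In WT, E2f4 was highest at 15.7 on this scale, followed by E2f5 at 13.5, Rb1 at 13.04, E2f3 at 9.29, E2f6 at 7.13 and E2f1 at 5.41. Rbl1 at 3.00, E2f8 at 2.79, E2f2 at 2.13 and E2f7 at 1.62 were lowest. E2f5 and Rb1 overlapped in WT, as did Rbl1 and E2f8, and every other pair of neighbours in this order was apart in all 3 libraries. In Fmr1-KO, E2f4, Rb1 and E2f5 were at 15.6, 14.99 and 14.7, each overlapping the next. E2f1 came to 8.47, level with E2f6 at 8.38, and E2f7 came to 2.92, level with E2f2 at 3.18. The order depends on the length used: with the longest transcript in place of merged exons, E2f6 moved to 13.4 in WT, level with E2f5 at 13.6, and E2f2 was lowest in both genotypes.

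The summed per-length level of the E2F genes was 57.7 ± 0.535 RPKM in WT and 66.6 ± 1.18 in Fmr1-KO (SD, n = 3). E2f4 had the largest share in both genotypes, followed by E2f5. The share of E2f4 was 27.3% of the sum in WT and 23.4% in Fmr1-KO, and that of E2f3 was 16.1% and 13.5%. The share of E2f1 was 9.39% and 12.7%, that of E2f8 4.84% and 6.61%, and that of E2f7 2.82% and 4.39%. That of E2f2 was 3.69% and 4.78%. For these genes the shares of the 3 Fmr1-KO libraries did not overlap with those of the 3 WT libraries. In CPM, 25.4% of tested genes were apart in this way upward and 26.3% downward. E2f3 and E2f4 were not called in CPM, and shares of a whole fall for some genes when others rise. The share of E2f6 was 12.4% and 12.6%. Shares depend on the length used: with the longest transcript in place of merged exons E2f6 had 18.7% in WT and 18.9% in Fmr1-KO, and E2f5 had 19.0% and 17.6% in place of 23.5% and 22.02%. Within the activators, E2f1 and E2f2 together were at 0.812 ± 0.0376 times the level of E2f3 in WT and 1.30 ± 0.0837 times in Fmr1-KO (SD, n = 3), so E2f3 outweighed the sum of the other two in WT and not in Fmr1-KO. The atypical E2Fs were at 0.262 ± 0.00601 times the summed activators in WT and 0.355 ± 0.00405 times in Fmr1-KO (SD, n = 3). Both ratios are over merged exons and also depend on the length used. With the longest transcript the share of E2f7 was 3.75% in WT and 5.76% in Fmr1-KO, and that of E2f8 was 5.76% and 7.78%. No P is given for shares or ratios of chosen genes.

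Among the 3 pocket protein genes, the share of Rbl1 was 13.1 ± 0.821% in WT and 18.5 ± 0.662% in Fmr1-KO (SD, n = 3). The share of Rbl2 was 29.7% and 25.2%, and that of Rb1 was 57.2% and 56.3%. Rbl1 was thus at 0.442 times the level of Rbl2 in WT and 0.735 times in Fmr1-KO. Rb1 made up most of the pocket protein mRNA per length in all 6 libraries.

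**Figure D3:**
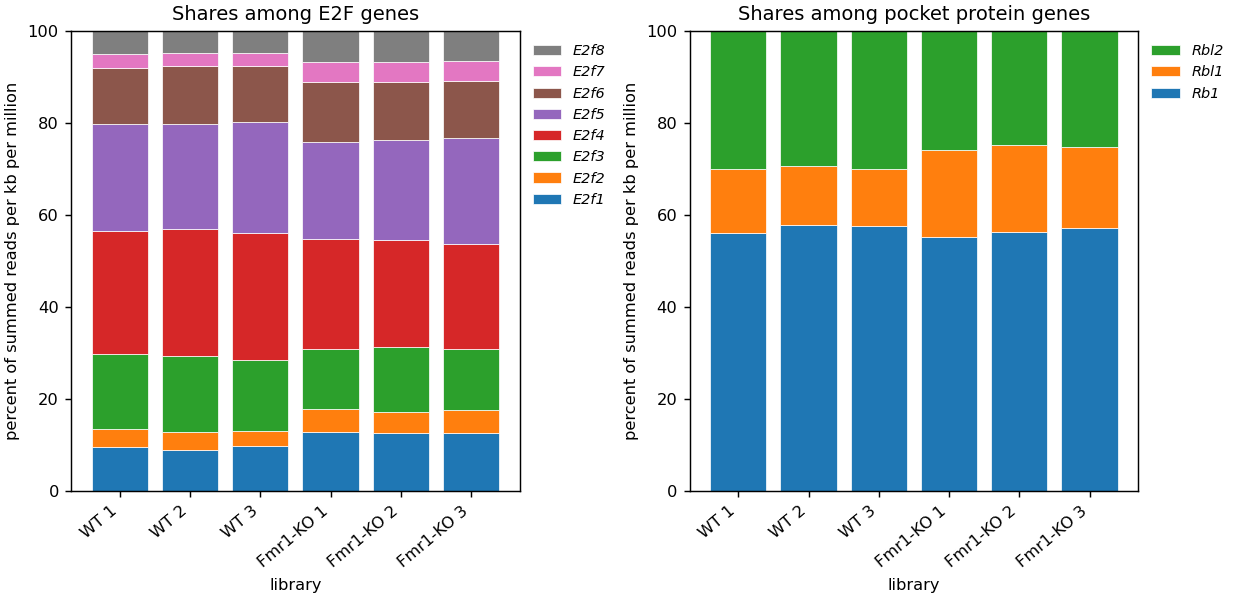
Share of each gene in the summed RPKM over merged exons of the 8 E2F genes (left) and the 3 pocket protein genes (right), with a stacked bar for each of the 6 libraries. In Fmr1-KO the shares of E2f1, E2f2, E2f7 and E2f8 are larger and those of E2f3 and E2f4, not called in CPM, are smaller than in WT. Rbl1 takes a larger share beside Rb1 and Rbl2.

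The genes that the family works with were described by counts and medians, beside the median of 0.01 over all tested genes. Of the DP subunits, which pair with E2F1 to E2F6 to bind DNA, Tfdp1 had 101 and 99.2 CPM in WT and Fmr1-KO (-0.02 on the log2 scale, adjusted P 0.683 in edgeR), while Tfdp2 rose from 58.5 to 69.8 CPM (0.25, adjusted P 6.66e-05). The MuvB core joins E2F4 or E2F5 and p130 or p107 in the repressive DREAM complex, and joins B-Myb and FoxM1 to activate late cell-cycle genes. Of its 7 listed genes, 5 were called higher and 0 lower, with a median of 0.26. The largest rises were those of the activating partners, Mybl2 from 12.2 to 19.8 CPM (0.70) and Foxm1 from 42.2 to 65.6 CPM (0.64), while Lin37, which belongs to the core, was at -0.09 and was not called.

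The repressor partners moved less. Of 10 listed PRC1.6 genes, which act with E2F6, 3 were called higher and 1 lower, with a median of -0.01. Mga, Ring1 and Cbx3 rose by 0.15 to 0.16 and Yaf2 fell by 0.24 on the log2 scale. Of 11 RB co-repressors and chromatin partners, 4 were called higher and 0 lower, with a median of 0.03, and the 4 were Hdac1, Sin3a, Arid4b and Kdm5a, at 0.12 to 0.22. Of the germline genes that E2F6 is known to silence, 3 of 8 had enough counts to be tested and 0 of those were called. Stag3, the most abundant of them, had 6.31 CPM in WT and 7.52 CPM in Fmr1-KO (adjusted P 0.0582 by edgeR), and Tuba3b had 0 counts in all 6 libraries.

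The kinases that release E2F from RB rose with the family, with a clear exception among the D-type cyclins. Of 9 listed genes, 7 were called higher and 1 lower, with a median of 0.44. Ccnd2, the D-type cyclin of cortical basal progenitors, rose from 406 ± 10.02 to 744 ± 16.6 CPM (SD, n = 3; log2 fold-change 0.87, adjusted P 3.79e-15 by edgeR). Ccnd1 was lower in all 3 Fmr1-KO libraries, at 57.8 ± 4.79 and 44.2 ± 4.79 CPM (SD, n = 3; -0.39, adjusted P 3.61e-05 by edgeR), and Ccnd3 was at 0.11 and was not called. Ccna2, Ccne2, Cdk2, Ccne1, Cdk6 and Cdk4 rose by 0.29 to 0.65. Among 6 tested inhibitors of these kinases, 3 were called higher, 1 was called lower and 2 were not called. Their median was 0.15 and changed sign under some of the alternatives given at the end. The lowest log2 fold-change was -0.14, for Cdkn1c. Cdkn1b, which encodes p27 and marks cells leaving the cycle, rose from 136 to 177 CPM (0.38), and Cdkn2c, which encodes p18, rose from 20.6 to 30.03 CPM (0.55). Cdkn2b rose by 0.69 from 1.22 CPM with overlapping libraries, and Cdkn1a, which encodes p21, fell by 0.13. Cdkn2a was not tested, for lack of counts. Of 5 ubiquitin ligase subunits that act on E2F or RB family proteins, Skp2, Ccnf and Cdc20 rose by 0.35 to 0.54, and Fzr1 and Mdm2 were not called.

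All 35 listed E2F targets of G1/S, genes for DNA replication and nucleotide supply, were called higher in Fmr1-KO. Their median log2 fold-change was 0.55, from 0.22 for Cdc25a to 0.81 for Rrm2, the ribonucleotide reductase subunit of S phase. Rrm2 rose from 90.5 to 159 CPM, Mcm2 of the replicative helicase from 62.8 to 98.3 CPM (0.65), and Brca1 from 18.8 to 31.2 CPM (0.73). The log2 fold-change of E2f7 was above that of each of the 35 targets, a difference that was not tested, and the changes of E2f1, E2f2, E2f8 and Rbl1 lay within their range. Without the 6 genes that stand on another cell-cycle list, the other 29 had the same median. Their calls add nothing, because all 35 had been called higher. All 20 listed late cell-cycle genes, which DREAM represses and FoxM1 activates, were also called higher, with a median of 0.69 and a range of 0.35 to 1.08. Of 6 proapoptotic genes that E2F1 is known to induce, 4 were called higher and 0 lower, with a median of 0.22. Bcl2l11 rose from 47.9 to 69.5 CPM (0.54) and Hrk from 37.7 to 53.4 CPM (0.50), both BH3-only death genes of neurons, Trp73 and Apaf1 rose by 0.24 and 0.20, and Bbc3 and Pmaip1 were at -0.08 and -0.19 and were not called.

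**Figure D4:**
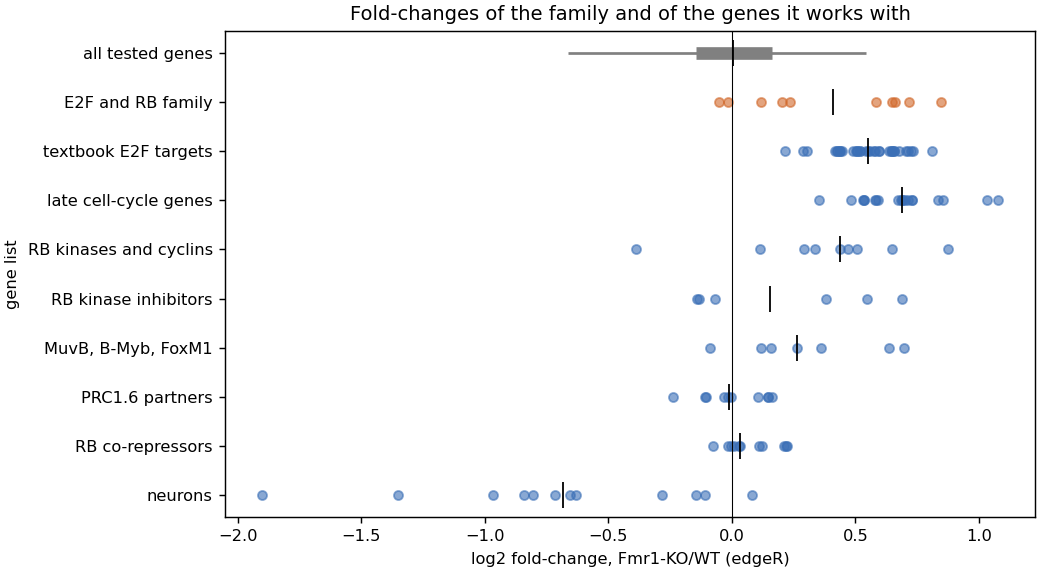
Log2 fold-changes, Fmr1-KO relative to WT, of the members and of the tested genes of 8 lists, with a tick at each median; for all tested genes the bar spans the quartiles and the line the 5% to 95% quantiles. All E2F targets and late cell-cycle genes lie above 0, the repressor partners lie around 0 and most neuron markers lie below 0.

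Markers of other cell states also differed between the genotypes, in both directions. All 10 listed markers of proliferating cells were called higher, with a median of 0.69, and their summed level was 524 to 574 CPM in WT and 910 to 991 CPM in Fmr1-KO. Of these 10 markers, 9 stand on the 2 cell-cycle lists above. Of 12 neural progenitor markers, 6 were called higher, 0 were called lower and 6 were not called, with a median of 0.21. Their log2 fold-changes ran from -0.12 for Hes5 to 2.79 for Eomes, with summed levels of 3296 to 3332 and 3687 to 3760 CPM. Eomes, which marks intermediate progenitors, rose from 10.5 ± 2.25 to 72.8 ± 7.88 CPM (SD, n = 3), and Pax6, which marks radial glia, from 82.8 to 119 CPM. Of 12 neuron markers, 11 were called lower and 1, Dcx, was called higher, with a median of -0.68 and summed levels of 5489 to 5624 and 4536 to 4748 CPM. The part of the cell makeup in the rise of the E2F and RB family genes was not tested.

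Glial and vascular markers were detected in both genotypes. The depletion named in the study's methods was of ACSA2+ astrocytes and myelin, and names no microglia or vascular cells. Of 8 astrocyte markers, 3 were called higher and 4 lower, with summed levels of 4388 to 4532 CPM in WT and 3802 to 4144 CPM in Fmr1-KO. All 8 oligodendrocyte lineage markers were called lower, at 1884 to 2046 and 1075 to 1159 CPM, and 7 of 8 microglia markers were called lower, at 137 to 153 and 84.8 to 94.6 CPM. Of 7 tested endothelial and mural markers, 4 were called higher and 2 lower, at 247 to 272 and 411 to 430 CPM. No marker on these lists was at 0 counts in all libraries, and Cldn5, an endothelial marker, was too low to be tested. Their part in the result was not tested.

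The members were also set against the proliferation markers in place of the library size. Dividing by the same sum moves every member by nearly the same amount on the log2 scale, so these values restate the CPM differences on another scale and are no separate result. Per 1000 counts of the 10 proliferation markers, E2f1 had 30.8, 28.8 and 33.5 counts in WT and 29.7, 26.3 and 29.1 counts in Fmr1-KO, and the genotypes overlapped. E2f7 had 27.2, 24.9 and 27.7 counts in WT and 28.4, 25.7 and 29.7 counts in Fmr1-KO, also with overlap. The Fmr1-KO mean was 91.3% of the WT mean for E2f1, 87.8% for E2f2, 105% for E2f7, 92.2% for E2f8 and 96.2% for Rbl1, and the libraries of these 5 genes overlapped. It was 56.3% for E2f3, 57.7% for E2f4, 63.2% for E2f5, 67.1% for Rb1 and 68.7% for E2f6. For these 5 genes no Fmr1-KO library reached the lowest WT library. The marker sum itself was 524 to 574 CPM in WT and 910 to 991 CPM in Fmr1-KO, so a gene unchanged in CPM also falls on this scale. The share of all tested genes that fall in this way was not computed, so the separation is not read as a result about these members. The denominator is a sum over few genes, some of which varied between replicates (Mki67 was 80.1 ± 15.6 CPM in WT and 170 ± 37.6 CPM in Fmr1-KO; SD, n = 3), and the values carry no test.

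**Figure D5:**
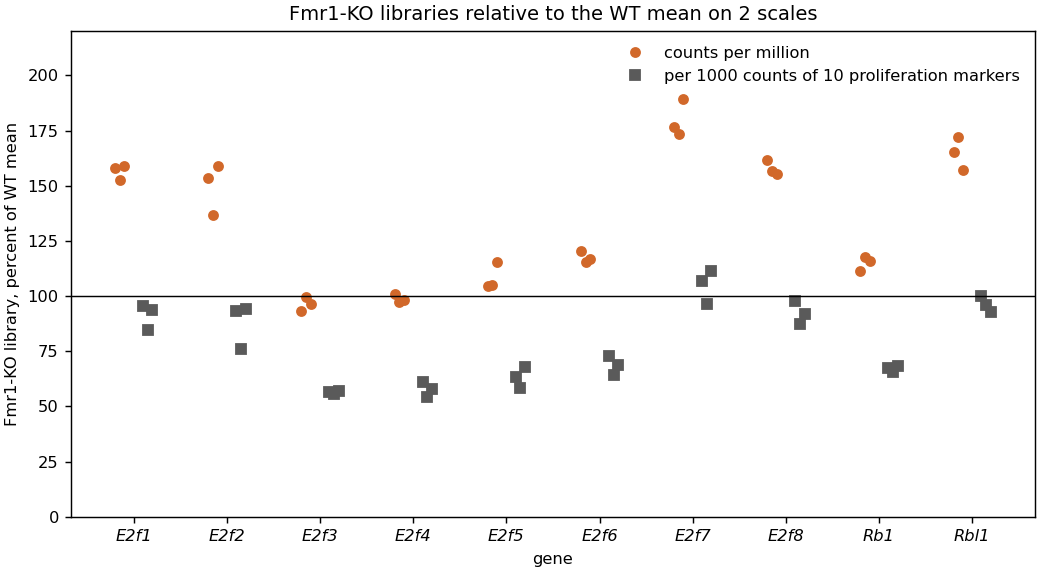
Each Fmr1-KO library as a percent of the WT mean for each member, in CPM (circles) and per 1000 counts of 10 proliferation markers (squares), with a line at 100%. E2f1, E2f2, E2f7, E2f8 and Rbl1 average 150% to 180% in CPM and 87.8% to 105% per 1000 marker counts, while E2f3, E2f4, E2f5, E2f6 and Rb1 average 96.5% to 118% and 56.3% to 68.7%.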

How the data were processed

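The authors deposited raw counts per gene name, with no normalization. Per the labels and the study's methods, poly(A) libraries were made with a stranded TruSeq kit, demultiplexed with bcl2fastq 2.19.0, trimmed with FastP, aligned to GRCm38.p6 with STAR 2.7.6a and counted over exons by gene name in reverse-stranded mode with featureCounts of Subread 2.0.1, so isoforms and unspliced exon reads are not separated. The authors tested genotype with DESeq2 1.22.1 in R 3.5.1. The 6 columns were matched to samples by title, and 0 columns belonged to other samples.

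Genes were tested here with edgeR 4.0.16 in R 4.3.3 (filterByExpr, TMM, glmQLFit and glmQLFTest, 2-sided, genotype as the only term), with Benjamini-Hochberg adjustment over 16976 genes and a call at an adjusted P under 0.05. The SE was the size of the log2 fold-change divided by the square root of F, and 95% confidence intervals used the t quantile. Exon lengths were taken from the GRCm38 annotation GENCODE M21, an earlier release than those the study names for its counting, which held 98.6% of the tested names. The procedure was first tested on simulated data. Within a genotype the libraries varied more than counting noise allows, with a chi-square of 2.92 (WT) and 3.17 (Fmr1-KO) per degree of freedom, and each was kept as a sample. Library totals were 35126207, 33431272 and 33688687 in WT replicates 1 to 3 and 32193352, 30348556 and 34516970 in Fmr1-KO replicates 1 to 3, and the members rested on 304 to 3167 reads per library.

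The members, the gene lists and the tests were chosen with earlier results of these data known, so lists are described by counts and medians with no test of a list. Named genes were all 10 members, Fmr1 and genes of the lists with a stated role. Gene-to-list assignments came from general knowledge, and the list of proapoptotic genes was shortened, after its values had been seen, by 2 genes that are not reported here, so its counts and median cover the other 6. As alternatives, normalization was by RLE, by upper quartiles or by library totals alone, the filter was dropped or raised to means of 10 counts and 5 CPM, the replicate number was added as a block, libraries were left out in turn, a minimum fold change of 1.2 was required, the 20 most abundant genes were removed, DESeq2 1.42.0 was used and longest-transcript lengths replaced merged exons; values per 1000 proliferation marker counts and the E2F target list without shared genes were added after the data had been seen. A planned comparison of protein sequences between members was not analysed here.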

Additional observations from a re-analysis of the deposited data

How the results depend on the processing

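The number of members called higher was 7 under every alternative except library totals alone, which gave 8 because E2f5 passed (0.15), and a minimum fold change of 1.2, which by its construction asks for larger changes and gave 5: E2f6 (0.23) and Rb1 (0.20) no longer passed. Under that minimum, 883 genes were called higher and 1340 lower, against 3506 and 3725. E2f4 turned sign with library totals alone, to 0.0117. The replicate numbers did not pair the samples, with correlations of -0.15, 0.14 and 0.07 between same-numbered libraries over 10763 genes, and the fit with the replicate block gave 3488 genes called higher, 3694 lower and 7 members higher, and changed no call of a member. Each library left out in turn gave 7 members, with log2 fold-changes of 0.62 to 0.67 for E2f1, 0.50 to 0.65 for E2f2, 0.81 to 0.87 for E2f7, 0.64 to 0.67 for E2f8 and 0.66 to 0.78 for Rbl1.

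List medians moved by more than their replicate spread in few cases. With library totals alone they were 0.0152 for DP subunits with Rbl2, 0.0172 for PRC1.6 partners, 0.0605 for co-repressors, 0.47 for kinases and cyclins, 0.38 for ubiquitin ligase subunits, 0.58 for E2F targets, 0.25 for proapoptotic genes and -0.0114 for astrocytes, and with upper-quartile normalization PRC1.6 partners were at -3.84e-06. The median of kinase inhibitors, 0.15, changed sign to -0.0708 without a filter, -0.0686 with the stricter filter and -0.0593 with DESeq2. The stricter filter gave -0.97 for microglia and 0.67 for endothelial and mural cells, on fewer genes, and removing the 20 most abundant genes gave 0.0478 for astrocytes. Leaving out a library gave medians of 0.36 to 0.44 for the family, 0.50 to 0.65 for activators, 0.0185 to 0.0614 for co-repressors, 0.32 to 0.37 for ubiquitin ligase subunits, 0.0102 to 0.30 for germline genes, 0.19 to 0.28 for proapoptotic genes, 0.16 to 0.24 for neural progenitors and 0.38 to 0.53 for endothelial and mural cells. The lowest and highest germline medians came without Fmr1-KO replicates 2 and 3, and the highest co-repressor median without WT replicate 2. Library totals alone leave out the TMM factors, which were 0.99 in each WT library and 1.01 in each Fmr1-KO library. Every log2 fold-change then moves up by nearly the same amount. For other moves that a filter or minimum does not explain, the cause was not tested.

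Per 1000 proliferation marker counts, which divides by genes that rose, log2 ratios were -0.13 for E2f1, -0.19 for E2f2, -0.83 for E2f3, -0.79 for E2f4, -0.66 for E2f5, -0.54 for E2f6, 0.0701 for E2f7, -0.12 for E2f8, -0.58 for Rb1 and -0.0553 for Rbl1. With 3 libraries per genotype, the tests set the difference between genotypes against the spread between these cultures. Gene counts do not resolve isoforms or cell types.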
